A study of Mus musculus with 8 samples.

Results

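The segments of the T cell receptor beta chain and the joining segments of the alpha chain were described in 8 RNA libraries of sorted mouse CD4 T cells. Members were every gene whose symbol begins with Trbv, Trbd, Trbj, Trbc or Traj, or is Trac. The table held 95 of them among 18438 genes: 24 Trbv, 14 Trbj, Trbc2 and 56 Traj. The GENCODE M21 annotation lists 35 Trbv, 14 Trbj, 2 Trbc, 60 Traj, 2 Trbd and 1 Trac genes, and those outside the 95, among them Trac, Trbc1, Trbd1 and Trbd2, were not analysed here.

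The source was spleen of C57BL/6 animals 7 days into experimental autoimmune encephalomyelitis (EAE), which was induced with the myelin protein MOG as a model of multiple sclerosis. Regulatory T cells (Treg) were sorted as CD4+CD25hiYFP+ and effector T cells (Teff) as CD4+CD25-YFP-, each from wild-type animals (WT) and from animals with the genotype label IRE1a-/- (KO). IRE1a, the product of Ern1, senses misfolded protein in the endoplasmic reticulum. The 4 groups, Treg WT, Treg KO, Teff WT and Teff KO, held 2 libraries each. The labels name neither the promoter or Cre that removed IRE1a nor the cells that lack it, and do not say whether libraries of a group came from separate or pooled animals, so p-values cover the spread among these libraries only.

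A T cell builds its receptor genes by cutting and joining DNA in the thymus. A beta chain joins a variable (V), a diversity (D) and a joining (J) segment, an alpha chain a V and a J segment, and splicing then places the joined exon before a constant (C) exon. Each mature T cell therefore carries mainly 1 J segment per expressed chain, and the RNA of a population shows how its cells are spread over the segments. Traj18 is the joining segment of the invariant receptor of natural killer T (NKT) cells, and Traj33 that of mucosal-associated invariant T (MAIT) cells, both lineages set apart from conventional CD4 T cells. In bulk RNA, fewer cells with a segment and less RNA per cell cannot be told apart. The values count reads assigned to annotated segment sequences, and the animals' own sequences were not analysed here, so a low value means only that few reads were assigned to the annotated segment.

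The results turn on 7 alpha joining segments that were low in KO libraries of both cell types. Their sequences are shown first so that they can be told apart by eye. All lie on the plus strand of chromosome 14 (GRCm38), each is 1 annotated J segment of 60 to 66 bases, and the sequences are those of the GENCODE M21 transcripts, written 5′ to 3′. Capitals mark the letters TTTGGNNNNGG or TTCGGNNNNGG, which encode the phenylalanine-glycine-X-glycine motif of J segments, searched on the plus strand only.
Traj44: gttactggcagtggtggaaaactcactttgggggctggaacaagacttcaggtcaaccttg
Traj37: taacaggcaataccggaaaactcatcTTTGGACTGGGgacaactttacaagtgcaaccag
Traj32: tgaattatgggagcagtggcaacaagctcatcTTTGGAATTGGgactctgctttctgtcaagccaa
Traj23: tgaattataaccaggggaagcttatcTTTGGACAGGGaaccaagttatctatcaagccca
Traj17: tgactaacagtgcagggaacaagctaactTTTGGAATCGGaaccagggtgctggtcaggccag
Traj16: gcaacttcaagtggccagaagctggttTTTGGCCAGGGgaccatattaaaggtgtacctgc
Traj3: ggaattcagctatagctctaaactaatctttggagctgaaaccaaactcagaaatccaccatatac

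These letters were found in 5 of the 7 segments, in 35 of the 37 other tested Traj, and in 43 of the 60 annotated Traj (71.7%). Traj44 and Traj3 lack them in exactly this form. The 7 sequences are not near copies of any other J segment, since at least 19 single-base edits separate each from its nearest other one. No stretch of 31 bases of a Traj or Trbj transcript occurs in the transcript of another annotated gene. Their positions are chr14:54173690-54173750 (Traj44), chr14:54181518-54181577 (Traj37), chr14:54186101-54186166 (Traj32), chr14:54196081-54196140 (Traj23), chr14:54201775-54201837 (Traj17), chr14:54203134-54203194 (Traj16) and chr14:54217292-54217357 (Traj3).

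Values are the authors' normalized read numbers, given as mean ± SD of n = 2 libraries. In each library 1 read was worth 0.981 to 1.03, and 96.2% to 100% of the positive Traj values of a library were whole multiples of that step within 0.05, so a Traj value is close to a number of reads. Library sums ran from 17504097 to 18751258, and Traj segments together took only 1071 to 1590 reads of a library, Trbj 934 to 1195 and Trbv 8114 to 9942. Ern1, the gene the KO label names, was 377 and 399 in Treg WT, 326 and 359 in Treg KO, 559 and 616 in Teff WT, and 458 and 453 in Teff KO. The difference was not called in either cell type (limma adjusted p = 0.489 and 0.0902), and the values cover the whole gene and not a deleted part. Foxp3, the factor that defines Treg, was 89.1 to 117 in Treg libraries, and 0 to 8.29 in Teff libraries, with both WT libraries at 0. Genes were tested where at least 2 libraries reached a value of 10, and a gene was called where limma's p, adjusted over all 13358 genes tested, fell below 0.05. Log2 differences were computed from log2(value + 1), and so understate the change of segments with low values. Of the 95 members 80 were tested (44 Traj, 21 Trbv, 14 Trbj and Trbc2). The 15 others, 12 Traj and 3 Trbv, never exceeded 8.07.

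The sum over all alpha joining segments was lower in KO than in WT in both cell types. The 56 Traj values summed to 1403 and 1311 in Treg WT against 1053 and 1108 in Treg KO, and to 1415 and 1603 in Teff WT against 1173 and 1320 in Teff KO. The WT and KO sums did not overlap within a cell type, and the group means differed by -20.4% in Treg and -17.4% in Teff. Trbv sums differed by -3.85% and -6.94%, also with no overlap in either cell type. Trbj sums differed by -8.27% in Treg and 2.03% in Teff, and Trbc2, 1 of the 2 constant genes of the beta chain, by -3.47% and -2.37%. Both had no overlap in Treg and overlap in Teff. These sums have no test.

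The 7 segments were chosen after their values were seen, as the Traj with a KO mean under 50% of the WT mean and no overlap of libraries in both cell types. Together they made up 19.6% and 19.6% of all Traj values in the Treg WT libraries and 20.9% and 20.4% in the Teff WT libraries. In the KO libraries they made up 6.26% and 4.79% in Treg and 5.10% and 6.55% in Teff. Their sum went from 266 ± 13.1 in WT to 59.5 ± 9.08 in KO Treg, and from 311 ± 22.2 to 73.2 ± 18.9 in Teff. These low KO sums follow from how the 7 were chosen and have no test. The other 49 Traj together were 1091 ± 51.7 and 1021.5 ± 48.0 in WT and KO Treg, and 1198 ± 111 and 1173 ± 85.6 in Teff, differences of -6.37% and -2.08%. The sums of these 49 overlapped between WT and KO libraries in both cell types.

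Traj37 was the strongest case. It read 73.5 and 64.7 in Treg WT, 10.8 and 11.8 in Treg KO, 80.4 and 93.8 in Teff WT, and 6.19 and 12.4 in Teff KO. All 4 KO libraries lay below all 4 WT libraries. The segment fell by 2.51 on the log2 scale in Treg (SE 0.36, limma adjusted p = 0.0228) and by 3.16 in Teff (SE 0.36, adjusted p = 0.00467). Its mean share of all Traj values went from 5.09% to 1.05% in Treg and from 5.76% to 0.732% in Teff.

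Traj3, near the Trac end of the cluster, read 40.2 and 38.3 in Treg WT, 5.90 and 6.88 in Treg KO, 33.1 and 30.3 in Teff WT, and 5.16 and 5.15 in Teff KO. The KO libraries stayed below 7 and the WT libraries above 30. It fell by 2.45 in Treg (SE 0.34, limma adjusted p = 0.0200) and by 2.41 in Teff (SE 0.34, adjusted p = 0.00952), and the ratio of KO to WT means was 0.163 in both.

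Traj32 read 24.5 and 34.3 in Treg WT against 0.984 and 1.97 in Treg KO, and 21.1 and 27.2 in Teff WT against 3.09 and 8.24 in Teff KO. The Treg KO values correspond to 1 and 2 reads, against 60 reads in the WT libraries. The ratio of KO to WT in Treg was 0.0501, with an exact binomial 95% interval of 0.0101 to 0.154 that covers counting error only. The fall was called in Treg (-3.63, SE 0.55, limma adjusted p = 0.0277) and missed the threshold in Teff (-2.02, SE 0.55, adjusted p = 0.0768).

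Traj23, at rank 3 among Traj by mean value over the 8 libraries, read 88.2 and 55.9 in Treg WT, 35.4 and 22.6 in Treg KO, 99.4 and 110 in Teff WT, and 32.0 and 34.0 in Teff KO. It was called in Teff (-1.64, SE 0.32, limma adjusted p = 0.0272) but not in Treg (-1.28, SE 0.32, adjusted p = 0.118). Its SD of 22.9 in Treg WT was the largest among the 7 segments in any group.

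The last of the 7 were not called in either cell type. Traj17 read 27.5 and 33.3 in Treg WT against 6.89 and 3.93 in KO, and 33.1 and 33.3 in Teff WT against 5.16 and 19.6 in KO. Its Teff KO libraries, at 5 and 19 reads, were the furthest apart of its groups. Traj16 read 10.8 and 18.6 against 3.93 and 3.93 in Treg, and 21.1 and 23.2 against 6.19 and 3.09 in Teff. Traj44 read 10.8 and 11.8 against 1.97 and 1.97 in Treg, and 7.03 and 9.08 against 2.06 and 4.12 in Teff. The exact binomial 95% interval of its KO to WT ratio in Teff, 0.123 to 1.03, includes 1. The intervals of the other 13 ratios of the 7 segments ended at 0.602 or lower. Low ratios follow from how the 7 were chosen, so these intervals are no test of them. The intervals pool the reads of the 2 libraries of a group and leave out the spread between libraries.

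**Figure D1:**
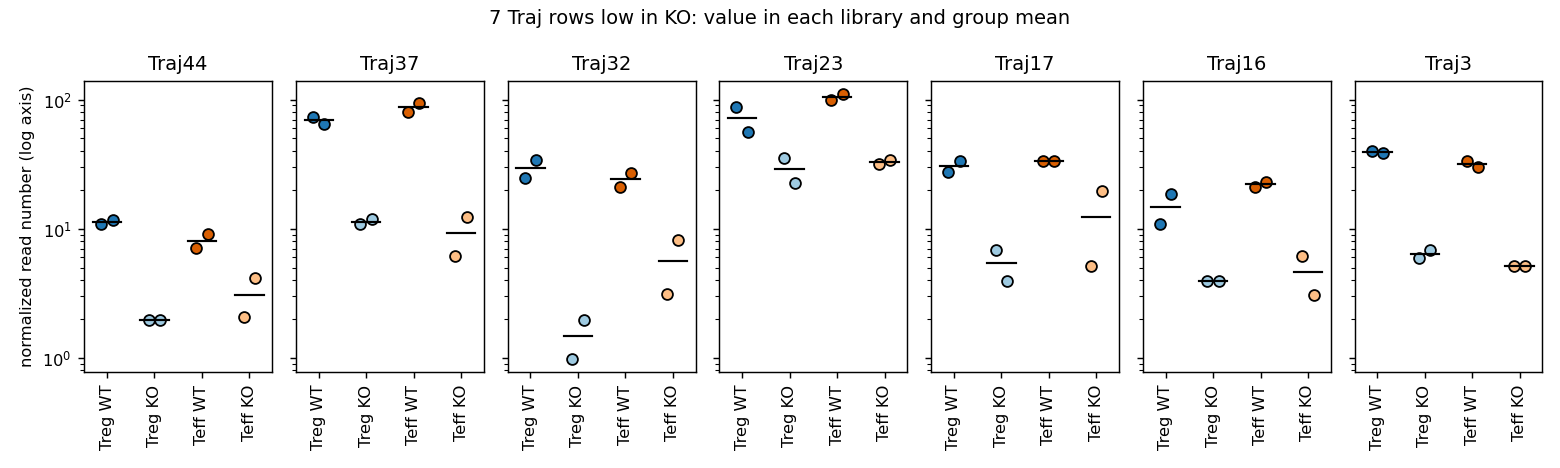
Normalized read number of 7 alpha joining segments in each of the 8 libraries (points) with the mean of each group of 2 (bars), on a log axis. In both cell types each segment's KO libraries lie below its WT libraries, with Traj37 between 64.7 and 93.8 in WT and between 6.19 and 12.4 in KO.

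Of the 44 tested Traj, 7 met the rule for both cell types (15.9%), against 1.34% of all 13358 genes tested. No Trbv, Trbj or Trbc2 met it. The share over all genes was not matched for level, and most Traj are low. For Traj44, Traj32, Traj16 and Traj3, only WT libraries reached the value needed for testing. Near that value the filter admits a segment that is low in KO through its WT libraries. The share among tested Traj therefore depends on the filter, and its difference from the share of all genes has no test. Traj23 was the weakest member, with KO to WT ratios of 0.402 and 0.315. Just outside lay Traj5, with ratios of 0.425 and 0.446 but overlapping libraries in Teff, Traj43 with 0.516 and 0.560, and Traj34 with 0.375 and 0.693. Leaving out 1 library at a time gave 5 to 8 segments. Without Teff KO replicate 1, Traj44 and Traj17 no longer met it. Without Treg WT replicate 1, Traj23 did not, and without Teff WT replicate 2, Traj5 was added.

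The 7 segments did not form 1 block of the locus. The Traj cluster spans 62.9 kb, and the 7 were spread from Traj44 to Traj3, with Traj17 and Traj16, 1.36 kb apart, as the only adjacent pair. None of their other tested neighbours was called. KO libraries lay below WT libraries with no overlap in both cell types for Traj43, beside Traj44, and for Traj24 and Traj22, beside Traj23. They lay above for Traj45, beside Traj44, and Traj18, beside Traj17. Traj33 and Traj31 flank Traj32 at 0.743 and 1.79 kb, and their log2 differences were 0.54 and 0.23 in Treg and 0.11 and -0.47 in Teff. Traj4 and Traj2 flank Traj3 at 1.00 and 0.544 kb, and their differences were -0.00 and -0.17 in Treg and 0.60 and 0.31 in Teff. When the cluster was split by number, Traj31 and above took 43.9% to 51.1% of Traj values in all libraries, with means of 46.3% ± 0.689 in Treg WT, 45.5% ± 2.26 in Treg KO, 45.9% ± 1.51 in Teff WT and 50.0% ± 1.55 in Teff KO.

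**Figure D2:**
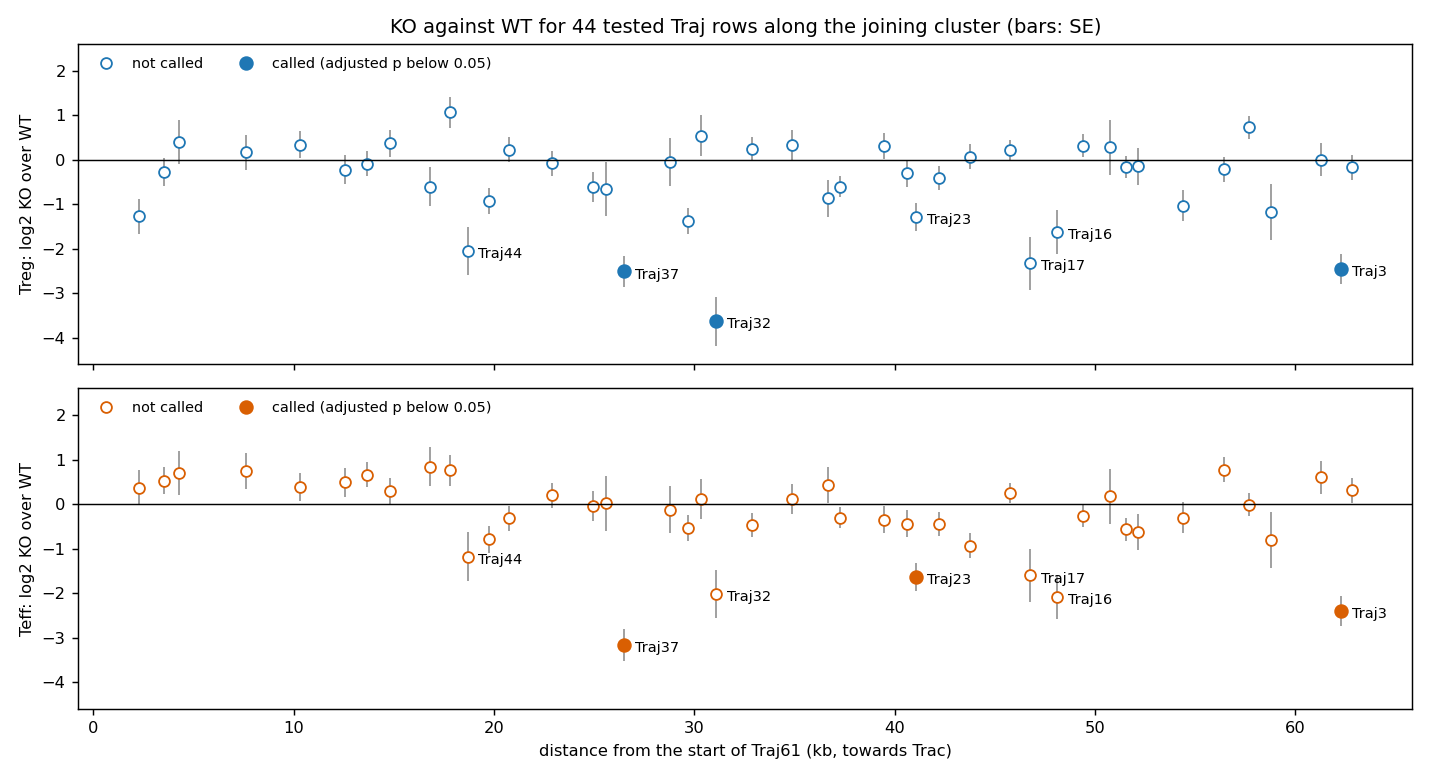
Log2 difference of KO over WT (points, with SE as bars) for the 44 tested Traj against distance from the start of Traj61 in kb, for Treg (top) and Teff (bottom), with called segments filled. The 7 low segments, named in the plot, lie apart from each other along the cluster, with segments between them that were not called.

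Over all members, 4 of 80 were called for KO against WT in Treg (5.00%, against 1.45% of all genes), all lower (0.779% of all genes). They were Traj3, Traj37, Traj32 and Trbv3. In Teff 8 of 80 were called (10%, against 6.92% of all genes), of which 7 were lower (5.08% of all genes). The lower ones were Traj37, Trbv19, Traj3, Trbv23, Traj23, Trbv13-3 and Trbv4, and the higher one was Trbv16. The median log2 difference of the members was -0.12 in Treg and -0.04 in Teff, and that of all genes -0.01 and -0.02. KO libraries lay below WT libraries with no overlap in both cell types for 18 of 80 members (22.5%, against 12.2% of all genes), 12 of them Traj and 6 Trbv. They lay above for 5 members (6.25%, against 9.12%), namely Trbv14, Trbv16, Traj52, Traj45 and Traj18. Traj45, next to Traj44, read 9.81 and 7.85 in Treg WT against 22.6 and 16.7 in KO, and 15.1 and 19.2 in Teff WT against 29.9 and 28.8 in KO. It was not called (limma adjusted p = 0.217 and 0.266).

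The 4 Treg calls depended on every Treg library. Without any 1 of the 4 Treg libraries, the adjusted p of Traj3, Traj37, Traj32 and Trbv3 rose above the threshold, to at most 0.163, 0.171, 0.204 and 0.230. Without Teff WT replicate 2, Traj37, Traj32 and Trbv3 were not called either, nor Traj32 and Trbv3 without Teff WT replicate 1. Trbv3 was also lost when class totals were made equal. In Teff, Traj37 was called under all 18 alternatives that tested it (adjusted p at most 0.0411). Traj3 was lost there without either Teff WT library, and Traj23 without any 1 of the 4 Teff libraries and under quantile normalization (adjusted p at most 0.0612 and 0.126). In a fit of the Teff libraries alone Traj37 was the only member called, and in a fit of the Treg libraries alone Traj37 and Trbv3 were. In the authors' deposited table, Treg had 6 members called (Trbv3, Trbv16, Trbv19, Traj37, Traj32 and Traj3), 4 of them shared with the calls here. Teff had 7 (Trbv16, Trbv19, Trbv23, Traj37, Traj23, Traj3 and Trbv4), all shared.

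The KO effects of Treg and of Teff rest on separate libraries, but the labels do not say whether both cell types came from the same animals. Over the 44 tested Traj, which include the 7 chosen as low in both, the KO effects correlated with Pearson's r = 0.75. Over 21 Trbv it was r = 0.59, over 14 Trbj r = 0.25 and over all 13358 genes r = 0.37. The sign was the same for 27 of the 44 Traj (61.4%), 14 of the 21 Trbv (66.7%) and 9 of the 14 Trbj (64.3%), near the 62.8% of all genes. The points of a class share libraries and their depth, and segments are not replicates. None of the 80 members passed the test of a difference between the KO effects (limma, against 0.0225% of all genes called). At an unadjusted p under 0.05 there were 10 of 80 members and 1384 of all 13358 genes. A member called in 1 cell type and not in the other was thus not shown to differ between them.

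The variable segments of the alpha chain lie upstream in the same locus and were looked at after the Traj values were known. Of 91 tested Trav, 12 met the rule for both cell types (13.2%, against 1.34% of all genes). As for Traj, the share of all genes was not matched for level, and the difference has no test. For KO against WT 7 Trav were called higher and 6 lower in Treg, and 10 higher and 11 lower in Teff, against 1.45% and 6.92% of all genes called in either direction. Trav therefore held calls in both directions, whereas Traj had 3 lower and 0 higher in each cell type. Of 30 tested genes within 1000 kb of the Traj cluster that are no receptor segments, 1 was called in Treg (Dad1, lower, as were 0.779% of all genes) and 6 in Teff, all lower, as were 5.08% of all genes. Of these 30, Ajuba and Ppp1r3e met the rule for both cell types (6.67%).

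Among beta variable segments, Trbv19, Trbv16, Trbv3 and Trbv23 carried the main differences between WT and KO. All are on chromosome 6, plus strand. Trbv19 (chr6:41178375-41179048) read 476 and 468 in Treg WT, 324 and 319 in Treg KO, 579.5 and 579.8 in Teff WT, and 323 and 361 in Teff KO. It fell by 0.76 in Teff (SE 0.10, limma adjusted p = 0.00724), and its difference in Treg, -0.55, just missed the threshold (SE 0.10, adjusted p = 0.0513). The Teff call was lost in a fit of the Teff libraries alone (adjusted p = 0.0553). The KO libraries of both cell types lay below every WT library.

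Trbv16 (chr6:41151740-41152230) went the other way. It read 433 and 464 in Treg WT, 604 and 669 in Treg KO, 451 and 498 in Teff WT, and 716 and 745 in Teff KO, so that each KO library lay above each WT library. It rose by 0.62 in Teff (SE 0.10, limma adjusted p = 0.0151), with a difference of 0.50 in Treg (SE 0.10, adjusted p = 0.0681). The Teff call was lost without Teff WT replicate 1, without Teff KO replicate 2 and in a fit of the Teff libraries alone (adjusted p at most 0.0800 under any alternative). Its mean share of Trbv values went from 4.91% to 8.11% in Teff and from 5.37% to 7.94% in Treg.

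Trbv3 (chr6:41048290-41048828) stood out in Treg WT. It read 888 and 906 there, against 559 and 567 in Treg KO, 563 and 662 in Teff WT, and 554 and 470 in Teff KO. The Treg WT libraries lay above the other 6. It fell by 0.67 in KO Treg (SE 0.12, limma adjusted p = 0.0463), was 0.55 higher in Treg than in Teff of WT mice (adjusted p = 0.0120, lost without either Treg WT library or Teff WT replicate 1), and was not called in Teff (-0.26, adjusted p = 0.253). Its share of Trbv values was 10.8% in Treg WT and 5.69% to 7.01% in the other groups.

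Trbv23 (chr6:41216073-41216526) was low in Teff KO. It read 65.7 and 65.7 in Treg WT, 42.3 and 55.0 in Treg KO, 62.3 and 64.5 in Teff WT, and 9.28 and 17.5 in Teff KO. It fell by 2.22 in KO Teff (SE 0.33, limma adjusted p = 0.0115) and was 1.84 higher in Treg than in Teff of KO mice (SE 0.33, adjusted p = 0.00580). The test of the difference between its KO effects, 1.79, was not called (SE 0.47, adjusted p = 0.263). The Teff call was lost without either Teff WT library and in a fit of the Teff libraries alone, with an adjusted p of at most 0.0662.

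Trbv4 and Trbv13-3 fell in Teff by 0.59 and 0.47 (limma adjusted p = 0.0377 and 0.0366), and both calls were lost without any 1 of the 8 libraries. Of the stretches of 31 bases in Trbv4, 73.6% also occur in 5830405F06Rik, and of those in Trbv13-3, 11.3% occur in Trbv13-2 or Trbv13-1, so their values are uncertain. The leading Trbv13-2, which took 12.6% to 14.7% of Trbv values in the group means and 355 units per 100 bases, was not called for KO against WT (adjusted p = 0.872 and 0.484).

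**Figure D3:**
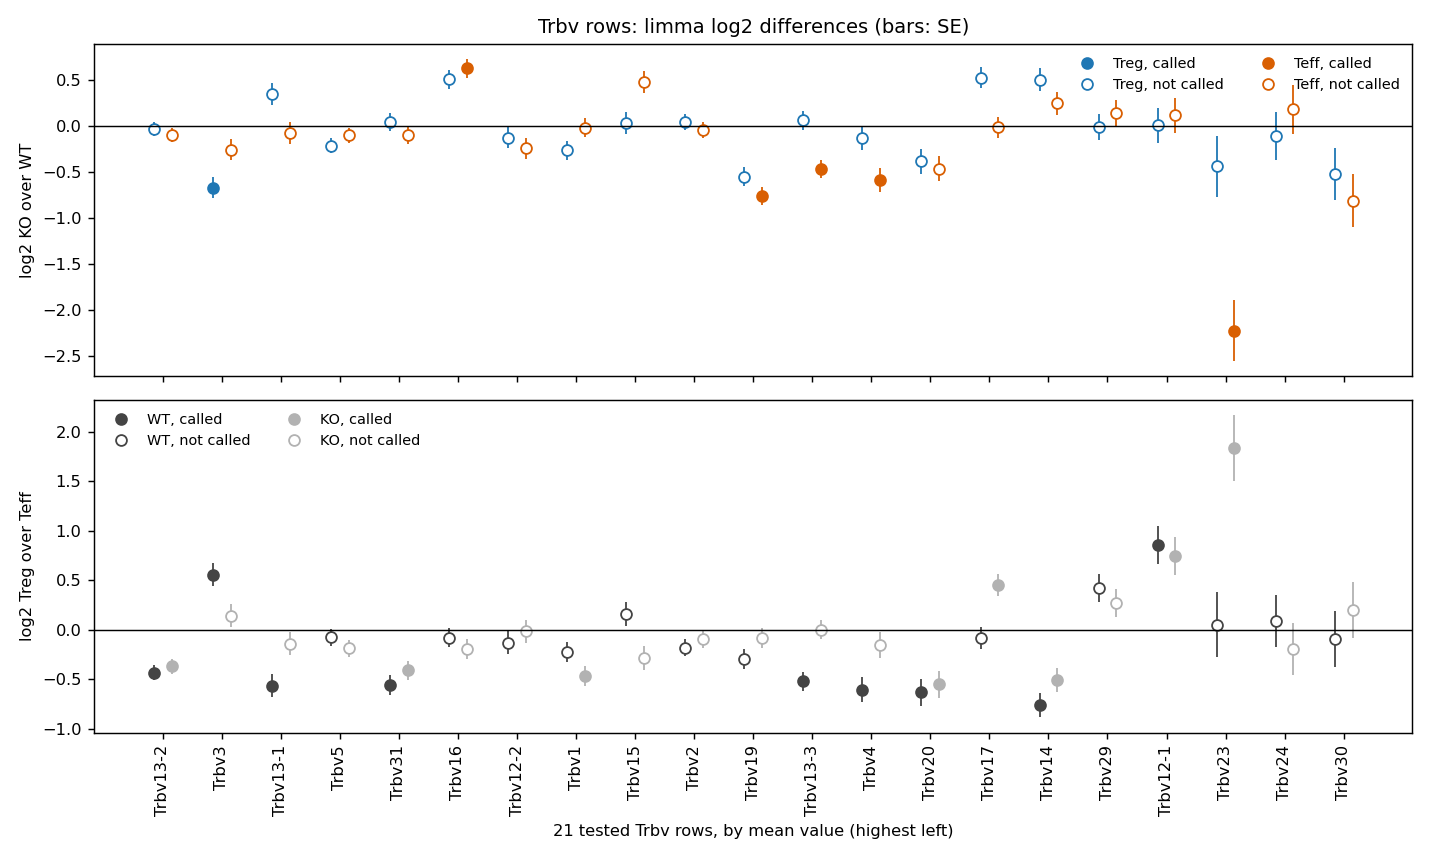
Limma log2 differences with SE of the 21 tested Trbv, ordered by mean value, for KO over WT in Treg and Teff (top) and for Treg over Teff in WT and KO (bottom), with called segments filled. Trbv16 lies above 0 and Trbv19 below 0 in both cell types, and Trbv23 at -2.22 in Teff and -0.44 in Treg.

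Beta joining segments showed no call. Of the 14 tested, 0 were called in any of the 5 comparisons, with limma adjusted p-values of at least 0.188. Of all genes, 1.45% and 6.92% were called for KO against WT in Treg and in Teff, so 0 of 14 is near those shares. For Treg against Teff 25.1% were called in WT and 26.9% in KO, and for the difference of the KO effects 0.0225%. Trbj2-7, the leading segment at 293 units per 100 bases, read 121 and 123 in Treg WT, 104 and 141 in Treg KO, 159 and 153 in Teff WT, and 131 and 170 in Teff KO. Trbj1-7 was the lowest at 35.6 per 100 bases, with values of 11.8 to 20.7. Trbj2-3, Trbj2-5 and Trbj2-1 followed Trbj2-7 at 218, 204 and 201 per 100 bases, a span smaller than their spread over libraries. The largest of the pairwise differences was that of Trbj1-4 between KO and WT in Treg, with 116 and 100.05 in WT and 70.8 and 72.7 in KO (-0.58, SE 0.22, adjusted p = 0.292). In Teff KO, Trbj2-5 read 81.5 and 159, the widest gap between replicates of the class.

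The Trbj1 segments, before Trbc1, and the Trbj2 segments, before Trbc2, kept similar proportions. Trbj1 took 44.7% ± 0.661 of Trbj values in Treg WT, 42.5% ± 0.194 in Treg KO, 40.9% ± 0.314 in Teff WT and 41.3% ± 3.25 in Teff KO. Trbj2-6, annotated as a pseudogene, was at 2.16% to 3.75% of Trbj values. Trbj transcripts are 46 to 54 bases and reads 50 bases, so a read from a joined message would mostly reach beyond the segment. The sources used here do not give how such reads were assigned.

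**Figure D4:**
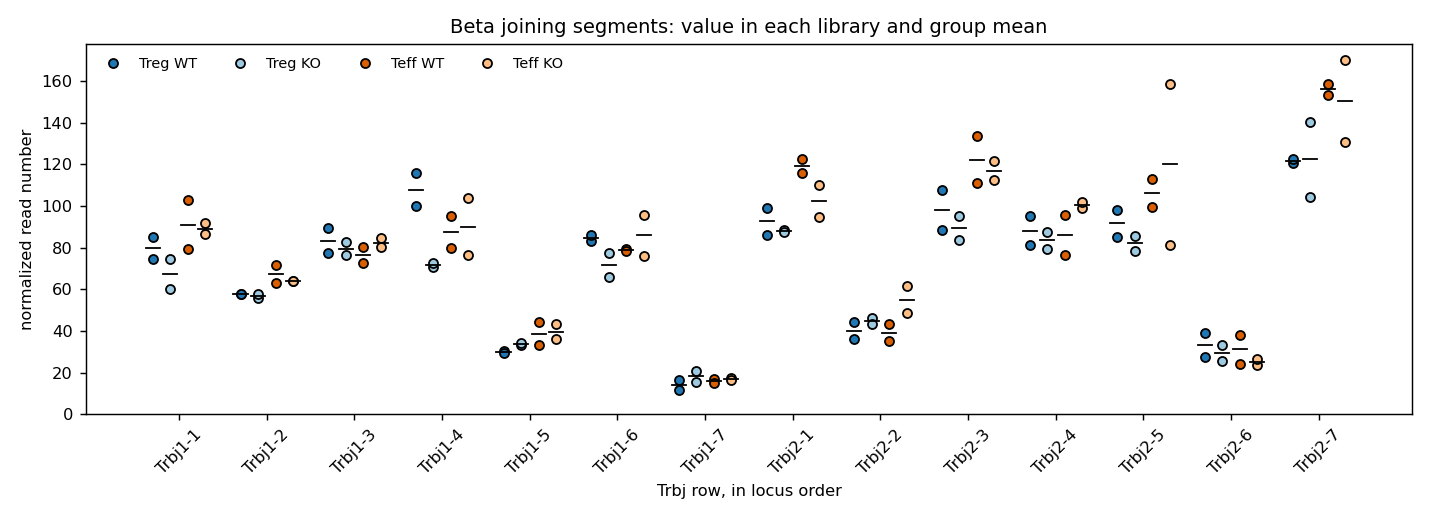
Normalized read number of the 14 beta joining segments, in locus order, in each of the 8 libraries (points) with group means (bars). Trbj2-7 is the highest and Trbj1-7 the lowest, and none of the 14 was called in any comparison.

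Share profiles were compared between libraries within each class. The distance between 2 libraries was the percentage of the class total that would have to move between segments to make their profiles equal. For Traj the median distance was 9.77% between libraries of a group (7.81% to 13.4%), 14.4% between Treg and Teff of a genotype (12.5% to 19.6%) and 22.7% between WT and KO of a cell type (20.7% to 24.5%). Over the other 49 Traj, without the 7 low segments, the medians were 9.19% (8.71% to 13.1%), 14.5% (12.8% to 19.7%) and 15.6% (15.2% to 17.4%). The WT and KO distance was then close to that between Treg and Teff, but its fall follows from how the 7 were chosen. For Trbj these medians were 6.69%, 7.84% and 6.93%, so genotype distances were close to those between replicates. For Trbv they were 2.90% (2.49% to 3.30%), 9.30% (5.47% to 10.5%) and 8.73% (7.21% to 9.13%), so that in Trbv, as in Traj, every WT and KO pair of a cell type was further apart than any replicates. The distances share libraries and have no test. The effective number of segments, the exponential of the Shannon entropy, was 35.4 to 39.9 for Traj, 12.3 to 13.0 for Trbj and 16.2 to 17.2 for Trbv over the 8 libraries.

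**Figure D5:**
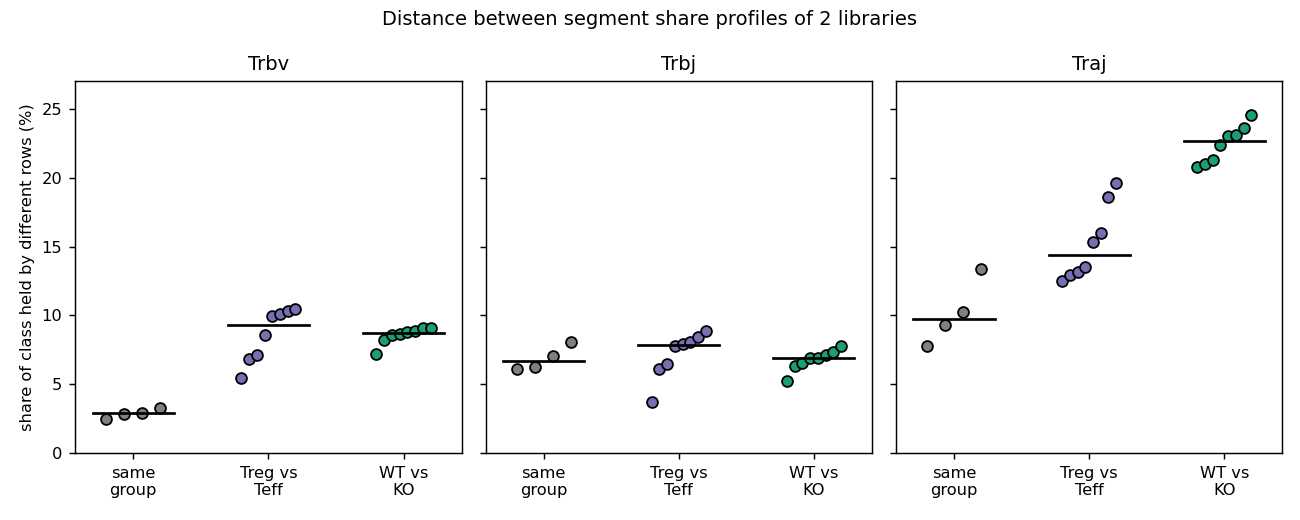
Distance between the share profiles of 2 libraries, in percent of the class, for Trbv, Trbj and Traj (points are pairs of libraries, bars are medians). For Traj every pair of WT and KO of the same cell type lies at 20.7% or more, above every pair from 1 group, while for Trbj the 3 kinds of pair cover similar ranges.

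Between Treg and Teff, 11 of 80 members were called in WT (13.8%, against 25.1% of all genes), 9 lower and 2 higher in Treg (11.6% and 13.5% of all genes). In KO 11 were called (13.8%, against 26.9%), 8 lower and 3 higher (11.2% and 15.7% of all genes). The shares of lower calls were thus near those of all genes. Trbv and Trbc2 held 8 of the 9 lower calls in WT and 6 of the 8 in KO. The median member difference was -0.13 in WT and -0.21 in KO, and that of all genes -0.00 and 0. Trbc2 was 16519 and 16550 in Treg WT and 18728 and 19586 in Teff WT, and 15921 and 16002 against 18108 and 19297 in KO. It was lower in Treg by -0.21 (SE 0.05, limma adjusted p = 0.0154) and -0.23 (SE 0.05, adjusted p = 0.0108), and 48.5% of its stretches of 31 bases are shared with Trbc1. Both calls were lost under quantile normalization, the WT call also without either Treg WT library or Teff WT replicate 2, and the KO call without either Treg KO library.

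Trbv14 read 167 and 165 in Treg WT, 268 and 296 in Teff WT, 245 and 224 in Treg KO, and 325 and 344 in Teff KO. It was lower in Treg in both genotypes (-0.76 and -0.51, limma adjusted p = 0.00398 and 0.0208). Trbv31, which lies past Trbc2 on the minus strand, was also lower in both (-0.56 and -0.41, adjusted p = 0.00586 and 0.0198), as were Trbv13-2 (-0.43 and -0.37, adjusted p = 0.00488 and 0.00935) and Trbv20 (-0.63 and -0.55, adjusted p = 0.0131 and 0.0217). Trbv12-1 was higher in Treg in both, at 192 and 175 against 113 and 89.7 in WT, and 171 and 198 against 99.0 and 120 in KO (0.85 and 0.75, adjusted p = 0.0162 and 0.0260). Of the KO calls, those of Trbv14, Trbv31, Trbv13-2 and Trbv20 were lost when class totals were made equal. In WT the same step ended those of Trbv13-2 and Trbv13-3. With 1 library left out, the WT calls of Trbv14, Trbv31 and Trbv13-2 held, that of Trbv20 was lost without Treg WT replicate 2 or Teff WT replicate 2, and that of Trbv12-1 without either Treg WT library or Teff WT replicate 2. The KO call of Trbv14 was lost without any 1 of the 4 KO libraries. Those of Trbv31 and Trbv20 were lost without Treg KO replicate 2 or either Teff KO library, that of Trbv13-2 without Treg KO replicate 2 or Teff KO replicate 2, and that of Trbv12-1 without either Treg KO library or Teff KO replicate 1.

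Of the alpha joining segments, Traj42 was called in WT, at 27.5 and 22.6 in Treg against 44.2 and 57.5 in Teff (-0.99, SE 0.28, limma adjusted p = 0.0414), a call that was lost without any 1 of the 8 libraries. Traj57 and Traj58 were called in KO (-1.34 and -1.50, adjusted p = 0.0173 and 0.0277). Traj57 read 11.8 and 15.6 in Treg KO against 39.2 and 33.0 in Teff KO, and Traj58 6.89 and 7.86 against 24.8 and 20.6. Without Treg KO replicate 1 or either Teff KO library, neither was called, and without Treg KO replicate 2 Traj58 was not.

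Traj18 and Traj33 bear on the invariant lineages. Traj18 read 43.1 and 37.3 in Treg WT, 50.2 and 43.2 in Treg KO, 61.3 and 57.5 in Teff WT, and 62.9 and 79.3 in Teff KO. Every Teff library lay above every Treg library, but the difference was not called (limma, -0.55 for WT and -0.59 for KO libraries, adjusted p = 0.133 and 0.107), and Traj18 was at rank 5 among all Traj per length. Markers of invariant NKT cells also differed between the cell types. Of the list of 6, which includes Traj18, the 5 others held 4 genes called lower in Treg in each genotype. Slamf6 made up 87.8% to 99.1% of the sum of these 5, and the 4 left without it summed to 37.8 to 70.9 in Treg and 490 to 1015 in Teff libraries. Zbtb16, the factor that defines the lineage, had means of 1.96 and 5.61 in Treg against 197 and 147 in Teff, and Trav11, its variable segment, 24.0 and 6.39 against 202 and 81.4. Trav11 was not called in WT (limma adjusted p = 0.0804) and was called in KO (adjusted p = 0.0203). Its KO libraries were far apart, at 0 and 12.8 in Treg and 107 and 55.6 in Teff. The part of these markers in the Traj18 values was not tested. Traj33 read 7.84 to 19.7 in all libraries with overlapping groups and was not called.

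Markers of other cells moved with the groups too. The 5 measured gamma-delta T cell markers summed to 148 to 171 in Treg and 640 to 821 in Teff libraries, and the 4 measured macrophage markers to 10903 to 11355 in Treg WT, 6103 to 6590 in Treg KO, 369 to 1032 in Teff WT and 202 to 327 in Teff KO. B cell markers summed to 640 to 800.3 in Teff WT and 365 to 398 in Teff KO, and to 654 to 823 in Treg. The 3 measured NK cell markers summed to 33.0 to 59.1 in Treg and 422 to 543 in Teff. The 3 measured erythroid markers summed to 867 to 1158 in Treg and 103 to 240.1 in Teff. Plasma cell markers summed to 1225 to 1352 in Treg and 333 to 555 in Teff, but most of that was Prdm1. Its means were 1286 and 1223 in Treg WT and KO, and 378 and 297 in Teff WT and KO. Jchain went the other way, at 43.5 and 25.1 in Treg against 135 and 50.4 in Teff. It was called lower in Treg in both genotypes (limma adjusted p = 0.00269 and 0.0210). The third, Sdc1, had means of 7.22 to 17.3 and was not called. CD8 T cell markers summed to 248 to 295 in all libraries. Their part in the segment values was not tested.

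Other genes of the receptor were taken from a list. Its 35 tested genes covered the receptor complex, its proximal signalling, recombination and the gamma and delta constants. Of these, 2 were called higher and 0 lower in KO Treg, against 0.674% and 0.779% of all genes. They were Ptpn22, a phosphatase that restrains receptor signals (0.35, limma adjusted p = 0.0247), and Trgc1, a gamma constant gene (1.03, adjusted p = 0.0463). In KO Teff 0 were higher and 2 lower, against 1.84% and 5.08% of all genes (the kinase Zap70, -0.28, adjusted p = 0.0314, and the adaptor Lcp2, -0.30, adjusted p = 0.0488). The 8 genes of the complex and coreceptors held 0 calls in either. Between the cell types 16 of the 35 were lower in Treg in WT (11.6% of all genes were), and 15 were lower and 3 higher in KO (11.2% and 15.7% of all genes were), led by Themis, an adaptor of T cell development (-2.20 and -1.92, adjusted p = 1.52e-05 and 1.64e-05).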

How the data were processed

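RNA was measured in 8 libraries, 4 groups of 2, and the cell type and genotype labels gave each library its group. DESeq2 1.28.1, Salmon 0.14.1, Trim Galore 0.4.4, R 4.0.3 and build mm10 are named per the submitters' processing notes. No source used here gives the annotation. The authors deposited normalized read numbers, 1 signal column for each library, and their own log2 fold changes with adjusted p-values for KO over WT.

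The design allowed for counts, but most values of the table are not whole, so no count test was run. The test was limma 3.58.1, with trend and robust, in R 4.3.3 on log2(value + 1), 1 coefficient per group over all 8 libraries and 4 residual degrees of freedom, with Benjamini-Hochberg adjustment over the 13358 genes that reached 10 in 2 or more libraries. Comparisons were KO against WT in Treg and in Teff, Treg against Teff in each genotype, and the difference of the KO effects. An exact permutation test of 2 libraries against 2 cannot go below p = 0.333 and was not used. The fit was run on simulated data with the same dispersion for all genes and changes in KO Treg only, which does not test the calls given here. Identifiers of all 95 members matched GENCODE M21 (GRCm38) with the same version. Reads carry no molecular identifiers per the labels, so intervals cover counting error only. Tables were made with Python 3.11.15.

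Members and lists were chosen with earlier results of these data known. Segments named were all Trbj, the constant genes, Traj18, Traj33, the 8 leading Trbv and Traj, up to 8 called per class and comparison, those of largest share change and up to 4 receptor genes per comparison. Traj44, Traj17 and Traj16, and the segments just outside the rule of 7, were named after their values were seen. So were Trbv2, Traj22, Traj24, Traj26, Traj50, the Trav, Dad1, Ajuba, Ppp1r3e and 5830405F06Rik. Alternatives were other pseudocounts (0.5 and 5), filters, scalings, fits and leaving out each library.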

Additional observations from a re-analysis of the deposited data

Results flagged for a closer look

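For 5 of the segments named by rule, the KO libraries moved in opposite directions in Treg and Teff with no overlap of libraries. Members outside that set, among them Trbv2, Traj26 and Traj50, showed this too. The share of all genes with this pattern was not counted, so the 5 cannot be set against it. None of these segments passed limma's test of the difference between the KO effects, given here as Treg minus Teff on the log2 scale. Trbv13-3 was 338 and 333 in Treg WT against 351 and 347 in KO, and 482 and 483 in Teff WT against 333 and 366 in KO, a difference of 0.52 (adjusted p = 0.276). Traj15, the second Traj by mean value, was 53.0 ± 4.15 against 66.9 ± 13.9 in Treg and 65.4 ± 14.4 against 53.6 ± 1.40 in Teff, a difference of 0.58 (adjusted p = 0.655). Traj57 had a difference of -0.80 (adjusted p = 0.607), Traj47 of -1.44 (adjusted p = 0.494) and Traj7 of -0.99 (adjusted p = 0.437), all 3 with KO lower in Treg and higher in Teff.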

How the results depend on the processing

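Each comparison of 2 groups was recomputed under 19 alternatives and the difference of the KO effects under 18. The 4 members called for KO against WT in Treg became 2 with a mean of at least 50, 2 with only the groups compared and 2 with the replicate block, and 0 to 4 when 1 library was left out. The 8 in Teff became 5 with a mean of at least 50, 5 under quantile normalization, 1 with only the groups compared, and 2 to 6 with 1 library left out. The 11 for Treg against Teff in WT ranged from 5 to 10 with 1 library left out. The 11 in KO became 18 under quantile normalization, 6 with only the groups compared, and 2 to 11 with 1 library left out. No member was called for the difference under any alternative, and no result changed direction past the threshold. Replicate numbers did not pair the libraries: replicate differences of 2 groups correlated with r of -0.04 to 0.06 over 13358 genes. With the replicate block 6 members were called in Teff. Over all genes, 194 were called for KO against WT in Treg, 114 of 13358 with the block, and 44 to 72 without any 1 Treg library. In Teff 924 were called, 177 with only the groups compared, 571 without trend and robust, and 347 to 642 with 1 library left out. The 3357 and 3597 for Treg against Teff in WT and KO became at least 2086 and 2351 with 1 library left out. The 3 for the difference became 11 without trend and robust and 0 to 3 with 1 library left out. Leaving out 1 library ends most Treg calls, and a fit with a lone sample in a group assumes that it varies like the others. Depth limits the low Traj, whose KO values are 1 to 36 reads among the 7 segments.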
